A study of Zea mays with 12 samples.

Results

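Whole seeds of the transgenic maize line L100 were compared with seeds of wild-type Q319, an inbred line, at 15 days after pollination (DAP). The comparison took 3 L100 libraries and 3 wild-type libraries, 6 of the 12 RNA-seq libraries of the series, and used the read counts of all 41430 gene models. The other 6 libraries held seeds of the same lines at 10 DAP, 3 per line, and served to estimate the spread and to ask whether a difference at 15 DAP was already present at 10 DAP. The labels give the line, the stage and the tissue (seeds) and nothing more. What L100 carries, how many transformation events it stands for and whether the libraries came from separate plants are not stated, so no targeted gene could be checked, and a p-value here reflects variation among libraries that may be technical.

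At this stage the maize kernel is in active grain filling. The starchy endosperm, the main storage tissue, turns incoming sucrose into starch and makes zeins, the storage proteins that gather in protein bodies of the endoplasmic reticulum, while the embryo begins to lay down oil and globulins. Opaque2 and a few partner transcription factors switch on much of this programme, and the starch enzymes pass glucose from sucrose synthase through ADP-glucose pyrophosphorylase to the starch synthases and branching enzymes. A seed library holds all of these tissues, so fewer cells of a type and less RNA per cell cannot be told apart.

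The 6 libraries at 15 DAP held 19027677 to 22370566 counts in wild type and 15054051 to 16591327 in L100. Levels are given in CPM (counts scaled to a library size of 1000000, with TMM factors), and 3 counts correspond to 0.1515 to 0.23 CPM in these libraries. L100 replicates 1 and 2 resembled each other more than any other pair of replicates in the series (chi-square per gene of 7.0, against 12.2 to 43.3), and L100 replicate 3 stood apart from both (40.9 and 36.9). Results were therefore also computed without L100 replicate 3, and with replicates 1 and 2 summed into 1 library. Markers of seed tissue were present. The 8 starchy endosperm marker genes summed to 61400 to 77500 CPM in wild type and 68500 to 96900 CPM in L100, and none of them was at 0. Most of that sum was gz27 (43700 to 54700 and 52800 to 72700 CPM), while wx1, sh2, bt2 and o2, also among the 8, were lower in every L100 library than in any wild-type library without passing the test. The 9 embryo marker genes summed to 1160 to 1450 CPM in wild type and 2220 to 3710 CPM in L100, which did not overlap. This set took ole17 and a model named oleosin in place of the planned ole2, ole3 and rab17. Both were higher in every L100 library than in any wild-type library. wus1, a defining embryo meristem gene, had at most 4 counts in any of the 6 libraries.

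At 15 DAP edgeR's quasi-likelihood test called 1662 of 24941 tested genes (6.66%) at an adjusted p under 0.05. In L100 891 genes were higher (3.57%) and 771 lower (3.09%). By at least 2-fold, 945 genes differed (3.79%), 624 of them higher (2.5%) and 321 lower (1.29%). Of all tested genes 30.0% had 3 L100 libraries that did not overlap with the 3 wild-type libraries. Among the called genes this held for 884 of the 891 higher and 764 of the 771 lower. The higher genes were mostly weakly expressed and the lower ones mostly well expressed. Between 1 and 10 CPM 467 of 8898 genes were higher (5.25%) and 108 lower (1.21%). At 100 CPM or more, 27 of 1869 genes were higher (1.44%) and 146 lower (7.81%). With library totals in place of TMM, 43 genes in that top class were higher and 94 lower. Over all classes 1156 were then higher and 471 lower. The size of the imbalance thus turned on the scaling, while lower calls stayed the more frequent in the top class. With library totals the median over all genes went from -0.01 to 0.08 on the log2 scale. The count of 1662 was 615 without wild-type replicate 2, 935 without wild-type replicate 3, 810 without L100 replicate 1, 656 without L100 replicate 2 and 697 with L100 replicates 1 and 2 summed.

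**Figure D1:**
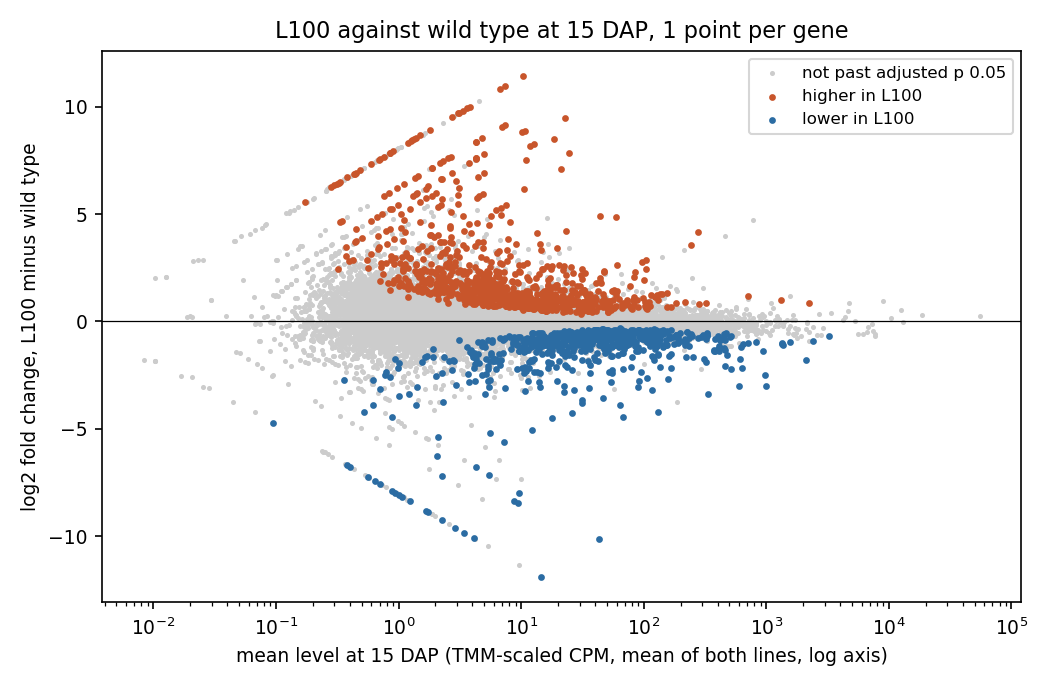
Log2 fold change (L100 minus wild type, 15 DAP) against the mean level of both lines in TMM-scaled CPM on a log axis, with 1 point per tested gene. Orange points are the 891 genes called higher and blue points the 771 called lower; the lower calls reach further into the highly expressed genes, and the slanted straight edges are genes with 0 counts in every library of one line.

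Among the 26 gene lists drawn up for seed functions, heat shock genes had the largest share of calls. The lists were chosen with earlier results of these data known, so this rank is no independent finding. Of 26 tested genes for heat shock proteins and heat stress transcription factors, 15 were lower in L100 and 0 were higher. That is 57.7% lower against 3.09% of all genes. Genes of a list can vary together across libraries, so these 15 calls are not independent of each other. Their median log2 fold change was -1.07, against -0.01 for all genes. At an unadjusted p under 0.05, 16 were lower and 2 higher. DESeq2 called 16 lower and 1 higher, limma-voom 13 lower and 0 higher, and scaling by library totals 14 lower and 1 higher. Over the fits that left out 1 library, 10 to 15 were lower. Without L100 replicate 3, and with L100 replicates 1 and 2 summed, 11 were lower in each case.

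The disaggregase gene hsp101 (chromosome 6, 160816590 to 160820105, B73 RefGen_v3), whose product pulls clumped proteins apart, was at 3010, 1470 and 858 CPM in the wild-type libraries and at 305, 126 and 227 CPM in L100. Every L100 library thus lay below every wild-type library, although the wild-type libraries themselves spread widely. The log2 fold change was -3.02 (SE 0.53, adjusted p = 0.01). HSP90-1, which encodes a chaperone of the HSP90 family that matures signalling proteins, was at 1610, 1020 and 566 CPM in wild type and at 144, 71.7 and 185 CPM in L100 (-3.0, SE 0.41, adjusted p = 0.0029). HSP90-2, named after its values were seen, changed less, from 1040, 875 and 689 CPM to 421, 335 and 380 CPM (-1.20, SE 0.17, adjusted p = 0.0029). Both HSP90 genes were lower in all 3 L100 libraries than in any wild-type library, and their calls held without any single library.

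Small heat shock proteins hold unfolding proteins in solution. Of 6 tested genes named as such (hsp 17.2, hsp18, hsp18a, hsp18c, hsp18f and hsp22), 5 were lower, against 3.09% of all tested genes. The remaining gene, hsp 17.2, did not pass (log2 fold change 0.16, adjusted p = 0.83). hsp22, the only one of the 5 whose call held without any single library, was at 1960, 1850 and 1160 CPM in wild type and at 331, 167 and 388 CPM in L100 (a log2 fold change of -2.49, SE 0.32, adjusted p = 0.0017). hsp18a was at 263, 324 and 154 CPM in wild type and at 27.8, 2.36 and 8.82 CPM in L100 (-4.24, SE 0.85, adjusted p = 0.041). The L100 libraries differed widely from one another for hsp18a, and its call ended without 6 of the 12 libraries taken one at a time (highest adjusted p = 0.12). hsp18 went from 396, 169 and 68.8 CPM to 26.7, 22.8 and 19.5 CPM (-3.20, SE 0.74, adjusted p = 0.031), and its call ended without 8 of the 12 libraries (highest adjusted p = 0.11). Small heat shock genes have close copies in the maize genome, and how reads shared between copies were counted is not stated, so the split between members is uncertain.

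Of 11 tested genes of heat stress factors, which switch such chaperone genes on, 3 were lower, 0 higher and 8 did not pass. Over all tested genes 3.09% were lower and 3.57% higher. Both this group and the small heat shock genes are parts of the heat shock list. The heat stress factor gene Hsf26 (chromosome 1, 275536675 to 275539559) was at 132, 222 and 36.1 CPM in wild type and at 7.32, 3.96 and 6.59 CPM in L100 (a log2 fold change of -4.44, SE 0.60, adjusted p = 0.0032). Hsf03 was at 29.8, 30.8 and 13.6 CPM in wild type and at 2.82, 3.2 and 4.37 CPM in L100 (-2.84, SE 0.38, adjusted p = 0.002). Hsf17, named after its values were seen, was at 34.8, 19.1 and 22.8 CPM against 10, 9.17 and 11.7 CPM (-1.31, SE 0.21, adjusted p = 0.0049). For these 3 factors the lines did not overlap and the calls held without any single library. The other 6 genes called lower, also chosen after their values were seen, were hsp1, Hsp70, hsp18c, hsp18f and 2 models named CPNA, which belong to chaperone families, with log2 fold changes from -2.21 to -0.78. The calls of hsp18c and hsp18f ended without 10 and 9 of the 12 libraries (highest adjusted p = 0.15 and 0.13), that of Hsp70 without L100 replicate 2 (0.056) and that of 1 CPNA model without L100 replicate 1 (0.063).

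The 11 heat shock genes that did not pass included well expressed members; those given here were chosen after their values were seen. hsp70-4 was at 5390, 3810 and 3050 CPM in wild type and at 4200, 3960 and 4730 CPM in L100 (log2 fold change 0.07, adjusted p = 0.88). hsp82, an HSP90 family gene, lay the other way, at 195, 62.6 and 33.5 CPM in wild type against 472, 221 and 500 CPM in L100 (2.04, adjusted p = 0.14). Hsf12 (0.42, adjusted p = 0.085) was the 1 higher gene with DESeq2 (adjusted p = 0.043) and with library totals (0.039). The factor gene Hsf01 was at 183 to 278 CPM in wild type and 230 to 257 CPM in L100 (0.02, adjusted p = 0.96). The lower level in L100 therefore did not extend to every tested member of the group.

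At 10 DAP edgeR called 0 of the 26 genes (3 before adjustment, 2 with DESeq2 and 0 with limma-voom), and their median log2 fold change was -0.15. hsp101 was then at 14.5, 24.3 and 17.1 CPM in wild type and at 27.9, 17.9 and 10.3 CPM in L100, so that both lines had far lower levels than either had at 15 DAP. Hsf26 was at 0.267 to 0.704 CPM in wild type and 0.116 to 0.429 CPM in L100. The tools differed on the change between the stages: the interaction passed in 0 of the 26 genes by edgeR, in 14 before adjustment, in 8 with DESeq2 and in 0 with limma-voom. By edgeR it had an adjusted p of 0.093 for hsp101, 0.068 for HSP90-1, 0.07 for Hsf03 and 0.29 for Hsf26. The summed level of the 28 genes of the list at 15 DAP was 23500, 19100 and 12400 CPM in wild type and 9590, 7600 and 9760 CPM in L100.

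**Figure D2:**
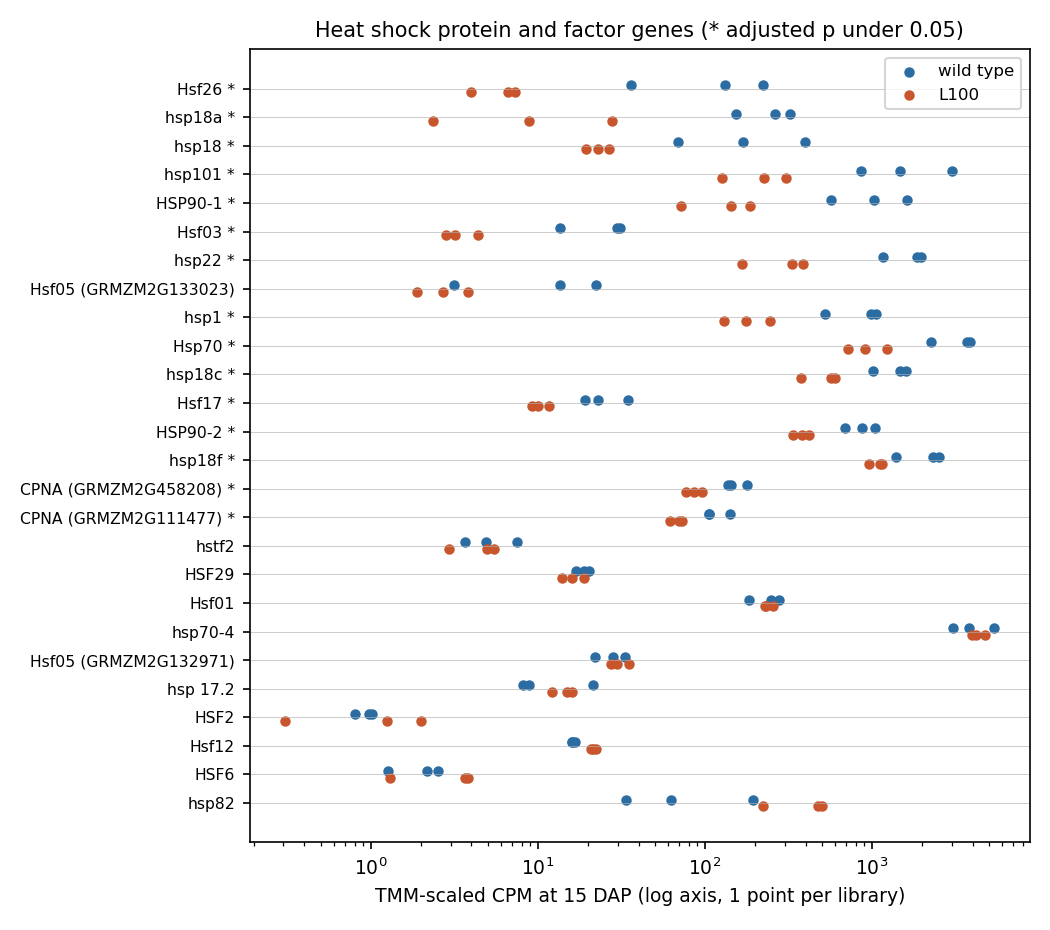
Levels of the 26 tested heat shock protein and factor genes at 15 DAP in TMM-scaled CPM on a log axis, with 1 point per library and genes ordered by log2 fold change; an asterisk marks the 15 genes past an adjusted p of 0.05. In the genes at the top the orange L100 points lie left of all blue wild-type points, and in hsp70-4 and Hsf01 the points of the lines overlap.

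Among genes of starch synthesis, 2 of 17 were lower in L100 (11.8%, against 3.09% of all genes) and 0 higher. Their median log2 fold change was -0.43. At an unadjusted p under 0.05, 5 were lower and 0 higher; DESeq2 called 2 lower and limma-voom 1. The starch synthase gene du1 (chromosome 10, 59516044 to 59527302), which helps build the branches of amylopectin, was at 620, 496 and 483 CPM in wild type and at 247, 230 and 156 CPM in L100. The lines were well separated, with a log2 fold change of -1.34 (SE 0.26, adjusted p = 0.013), and the call held without any single library. The starch synthase gene ss1 was at 466, 615 and 529 CPM in wild type and at 284, 339 and 262 CPM in L100 (-0.86, SE 0.23, adjusted p = 0.042). Its call was fragile and ended without 10 of the 12 libraries taken one at a time (highest adjusted p = 0.14).

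The other starch genes picked by name (sh2, bt2, bt1, wx1 and ae1) had lower means in L100 without passing. For su1 and su2, also picked by name, no gene model was matched, so they were not measured. sh2 and bt2 encode the subunits of ADP-glucose pyrophosphorylase, which makes the sugar donor of starch. sh2 was at 2960, 3990 and 3170 CPM in wild type and at 1850, 2180 and 2580 CPM in L100 (log2 fold change -0.62, adjusted p = 0.2), and bt2 at 2590, 3790 and 2350 CPM against 1210, 1610 and 1780 CPM (-0.92, adjusted p = 0.34). In both the 3 L100 libraries lay below the 3 wild-type libraries, yet the difference did not exceed the spread the test allowed for. That spread also draws on the 10 DAP libraries. Over the alternatives the adjusted p was 0.054 to 0.43 for sh2 and 0.056 to 0.6 for bt2. Both were lowest without L100 10 DAP replicate 2. bt1, the plastid transporter of ADP-glucose, overlapped between the lines (2130 to 3880 against 1810 to 2220 CPM, -0.63, adjusted p = 0.37). wx1, the granule-bound synthase that makes amylose, was at 8200, 9650 and 7630 CPM in wild type and at 5770, 7140 and 5980 CPM in L100 (-0.43, adjusted p = 0.61), and the branching enzyme gene ae1 was at 1570 to 2200 against 1120 to 1440 CPM (-0.57, adjusted p = 0.22). Over the fits that left out 1 library, 1 to 2 starch genes were lower. Of all 17 genes 13 had a negative and 4 a positive log2 fold change, from -1.34 to 0.32. The summed level of the list was 20200 to 26400 CPM in wild type and 13800 to 16800 CPM in L100.

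Calls for sucrose cleavage and sugar transport went in both directions. Of 14 tested genes 1 was higher and 1 lower in L100 (7.14% each, against 3.57% and 3.09% of all genes). Of the log2 fold changes 5 were positive and 9 negative, with a median of -0.06. sps1, a sucrose phosphate synthase gene, was higher, at 12.6, 4.75 and 9.7 CPM in wild type and 42.9, 31.3 and 14.9 CPM in L100 (1.72, SE 0.43, adjusted p = 0.039). It was also higher at 10 DAP (2.36, adjusted p = 0.019). The fructokinase gene frk2, whose enzyme phosphorylates the fructose freed from sucrose, was lower, at 702, 539 and 641 CPM against 460, 383 and 299 CPM (-0.72, SE 0.18, adjusted p = 0.033). Both 15 DAP calls depended on single libraries, ending without 6 and 8 of the 12 (highest adjusted p = 0.12 and 0.095). The sucrose synthase gene sh1 was at 8960, 9400 and 9230 CPM in wild type and at 6350, 6450 and 5720 CPM in L100. The lines did not overlap for sh1, yet the difference did not pass (-0.58, adjusted p = 0.34). Most of the summed level of the list was sh1. That sum was 11800, 11700 and 12200 CPM in wild type and 8990, 8900 and 7580 CPM in L100. For mn1, the cell wall invertase of the basal transfer layer, the means were 577 CPM in L100 and 581 CPM in wild type (-0.01, adjusted p = 0.99).

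Zein genes lay on the other side. All 17 tested zein genes had a positive log2 fold change, from 0.03 to 2.67 with a median of 0.52, and 2 passed as higher (11.8%, against 3.57% of all genes) and 0 as lower. Both were weakly expressed alpha-zein copies of the z1C family. z1C1_11 was at 3.21, 1.17 and 1.26 CPM in wild type and at 8.76, 8.27 and 18.9 CPM in L100 (2.67, SE 0.68, adjusted p = 0.049). z1C1_1, chosen after its values were seen, was at 0.505 to 0.74 CPM against 3.06 to 4.52 CPM (2.49, SE 0.55, adjusted p = 0.028). The fit of the 15 DAP libraries alone called 4 zein genes higher. The calls of z1C1_11 and z1C1_1 ended without 9 and 6 of the 12 libraries (highest adjusted p = 0.15 and 0.1), and 0 zein genes were called by edgeR without wild-type replicate 2 or 3 or without L100 replicate 1, 2 or 3. Alpha-zein genes are near-identical copies, so reads may have been divided among them in ways the deposited counts do not show.

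The abundant zeins did not pass. The gamma-zein gene gz27 was at 52400, 54700 and 43700 CPM in wild type and at 52800, 53400 and 72700 CPM in L100 (log2 fold change 0.25, adjusted p = 0.79). z1C2, the alpha-zein gene of the floury2 locus, was at 4780, 2900 and 2420 CPM against 4320, 4530 and 9570 CPM (0.87, adjusted p = 0.49). In both genes L100 replicate 3 held the highest value and the other L100 libraries overlapped with wild type. gz50 (0.35, adjusted p = 0.82) and the delta-zein gene dzs18 (0.29, adjusted p = 0.85) also did not pass. The summed level of the 20 zein models was 106000, 104000 and 80200 CPM in wild type and 110000, 111000 and 160000 CPM in L100.

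**Figure D3:**
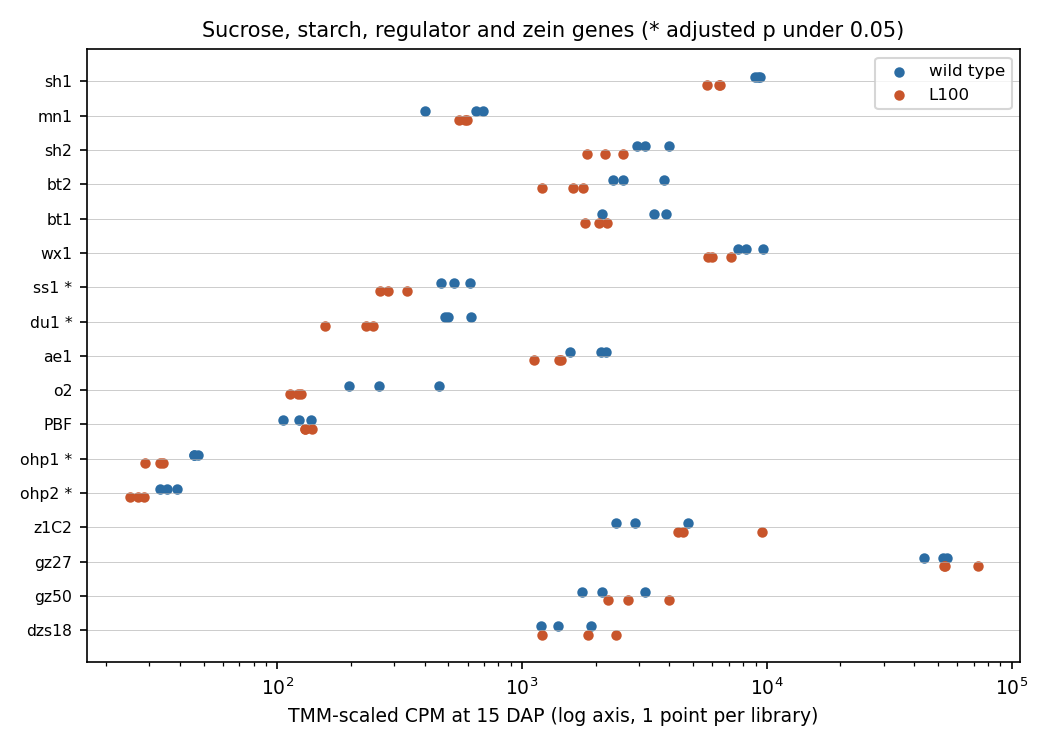
Levels of sucrose, starch, regulator and zein genes at 15 DAP in TMM-scaled CPM on a log axis, with 1 point per library; an asterisk marks an adjusted p under 0.05. The orange L100 points of du1, ss1, ohp1 and ohp2 lie left of all wild-type points. Those of sh1, sh2, bt2, wx1, ae1 and o2 do so without passing the test. Those of gz27 overlap with wild type except L100 replicate 3.

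Of 11 tested regulators of the endosperm, 3 were lower in L100 (27.3%, against 3.09% of all genes) and 0 higher. Their median log2 fold change was -0.29. At an unadjusted p under 0.05, 4 were lower; DESeq2 called 3 lower and limma-voom 1. ohp1, a bZIP partner of Opaque2 on zein promoters, was at 47.6, 45.6 and 45.5 CPM in wild type and at 34, 33.1 and 28.9 CPM in L100 (-0.53, SE 0.11, adjusted p = 0.02). It was also lower at 10 DAP (-0.69, adjusted p = 0.0085). Its close paralog ohp2 was at 39, 33.2 and 35.5 CPM against 28.5, 27 and 24.9 CPM (-0.42, SE 0.11, adjusted p = 0.042). fl3, the PLATZ regulator behind floury3, was at 411, 591 and 784 CPM against 347, 256 and 367 CPM (-0.88, SE 0.23, adjusted p = 0.044). The calls were not firm: they ended without 5, 12 and 9 of the 12 libraries (highest adjusted p = 0.058, 0.11 and 0.15), and 0 to 2 regulators were called over the fits that left out 1 library. o2 itself, the gene of Opaque2, was at 457, 261 and 196 CPM in wild type and at 121, 113 and 125 CPM in L100. The lines did not overlap for o2, but the wild-type libraries spread over a wide range and the difference did not pass (-1.35, SE 0.56, adjusted p = 0.19). It passed in the fit of the 15 DAP libraries alone (adjusted p = 0.044); over the other alternatives its adjusted p was 0.094 to 0.42. PBF, the gene of the prolamin-box binding factor, was at 121 CPM in wild type and 133 CPM in L100 (0.13, adjusted p = 0.67).

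b-32, a ribosome-inactivating protein gene of the endosperm that Opaque2 is known to activate, was among the largest increases in L100. It was at 60.4, 18.9 and 33.8 CPM in wild type and at 178, 225 and 956 CPM in L100 (a log2 fold change of 3.58, SE 0.67, adjusted p = 0.015). The highest value came from L100 replicate 3, and the call ended without wild-type replicate 2 (adjusted p = 0.061) or 3 (0.055). Among 21 genes of folding in the endoplasmic reticulum and of protein bodies, 1 was lower (4.76%, against 3.09% of all genes) and 0 higher. Before adjustment 7 were lower, DESeq2 called 3 lower and limma-voom 2, and 4 were lower without L100 replicate 3 against 0 without wild-type replicate 2, wild-type 10 DAP replicate 3 or L100 replicate 1 or 2. The 1 gene was der4, at 140, 166 and 138 CPM against 91.1, 94.4 and 115 CPM (-0.56, SE 0.13, adjusted p = 0.028), whose call ended without 5 of the 12 libraries (highest adjusted p = 0.11). der4 was also lower at 10 DAP (-0.58, adjusted p = 0.04).

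Embryo storage genes were higher where they passed. Of 14 tested genes for oil bodies, globulins and late embryogenesis proteins, 2 were higher (14.3%, against 3.57% of all genes) and 0 lower. Their median log2 fold change was 0.68. The number higher was 5 in the fit of the 15 DAP libraries alone, 4 when L100 10 DAP replicate 1 was left out, and 1 when wild-type replicate 2 or 3 or L100 replicate 2 or 3 was. The globulin gene glb2 (chromosome 1, 287134209 to 287135872), which encodes a storage protein of the embryo, was at 20.6, 27.1 and 39.7 CPM in wild type and at 460, 303 and 814 CPM in L100. Each L100 library was far above each wild-type library (4.17, SE 0.67, adjusted p = 0.0073), and the call held without any single library. The dehydrin gene dhn1, whose protein accumulates as embryos dry, was at 1.09, 1.29 and 0.707 CPM against 5.95, 7.71 and 11.4 CPM (3.02, SE 0.64, adjusted p = 0.021), and its call ended without 5 of the 12 libraries (highest adjusted p = 0.078). The oleosin genes ole1 and ole17, which like glb1 were named after their values were seen and code for coat proteins of oil bodies, were at 730 to 849 against 1180 to 1700 CPM (0.87, adjusted p = 0.21) and at 115 to 183 against 370 to 592 CPM (1.55, adjusted p = 0.16). Both passed in the fit of the 15 DAP libraries alone (adjusted p = 0.029 and 0.012). glb1 overlapped between the lines, at 159, 324 and 255 CPM against 300, 254 and 478 CPM (0.49, adjusted p = 0.64). glb2 and dhn1 are among the embryo markers, which summed to 1160 to 1450 CPM in wild type and 2220 to 3710 CPM in L100. glb2 alone held 303 to 814 CPM of the L100 sum, so that sum is no separate measure of the embryo. The part of embryo size in these results was not tested.

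Other tissues of the kernel gave few calls, counts too small to set against the shares of all genes (3.57% higher and 3.09% lower). Of 14 tested genes of the basal endosperm transfer layer, which takes up sugar from the mother plant, 1 was lower and 0 higher, with a median log2 fold change of -0.01. This was bap-3b, at 5.28, 6.29 and 8.38 CPM in wild type and 0.876, 0.486 and 1.46 CPM in L100 (-2.84, SE 0.41, adjusted p = 0.0034), which was also lower at 10 DAP (-1.99, adjusted p = 0.0063). The summed level of the transfer layer list was 921 to 1490 CPM in wild type and 1170 to 1640 CPM in L100. By edgeR 0 of 3 genes of the embryo surrounding region passed (1 before adjustment, 0 with DESeq2 and 0 with limma-voom). All 3 had a positive log2 fold change, with a median of 1.18. The summed level of that list was 7.51, 16.9 and 16.6 CPM in wild type and 25.9, 23.8 and 36.4 CPM in L100. Of 6 aleurone genes 0 passed, with 1 lower when p was not adjusted and 0 by either DESeq2 or limma-voom. For 23 photosynthesis genes, used as markers of green pericarp, the count was 0 by all of these.

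**Figure D4:**
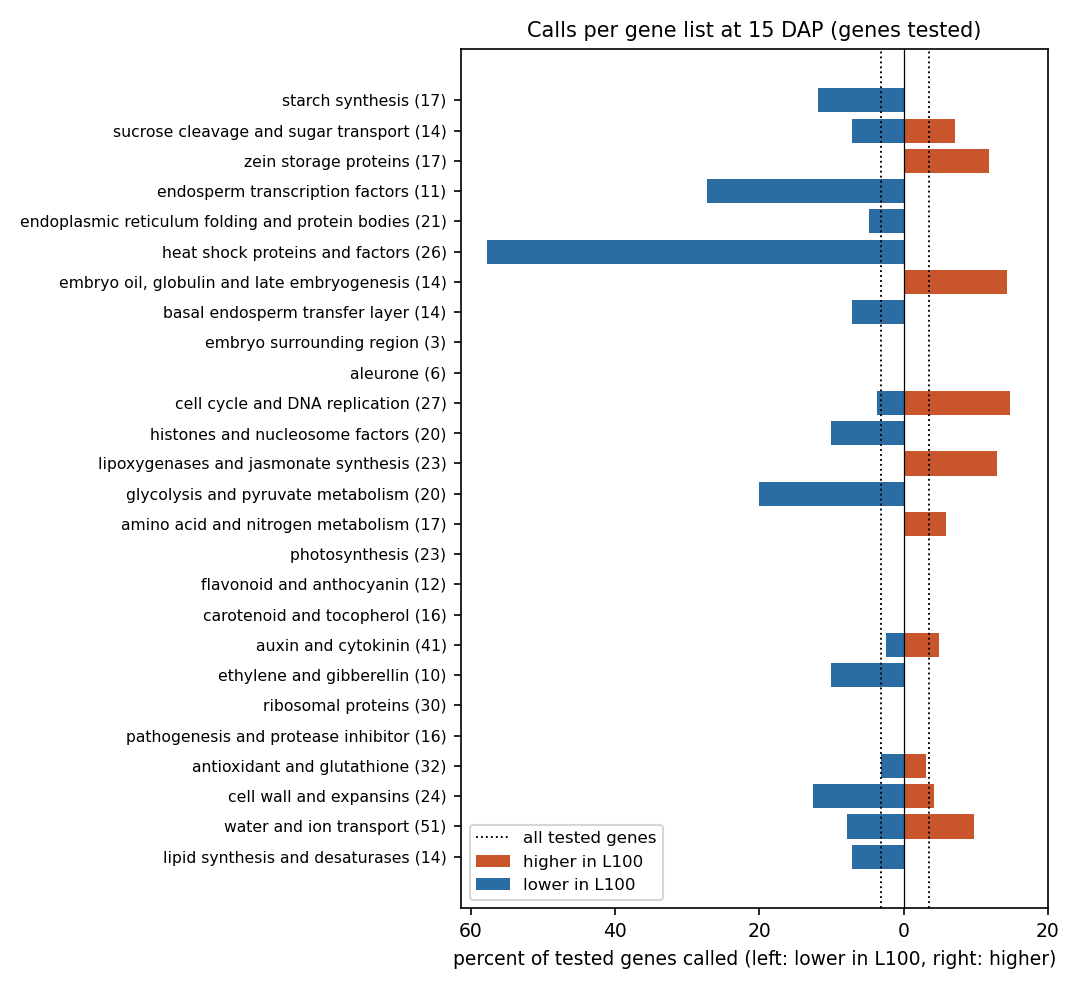
Percent of the tested genes of each of 26 gene lists called lower (blue, to the left) or higher (orange, to the right) in L100 at 15 DAP, with the number tested in parentheses; dotted lines mark the share of all tested genes, 3.09% lower and 3.57% higher. Heat shock genes reach 57.7% lower, and the lists of starch synthesis, endosperm transcription factors and glycolysis have calls only on the lower side.

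In carbon metabolism 4 of 20 glycolysis and pyruvate genes were lower in L100 and 0 higher, against 3.09% and 3.57% of all genes. The median log2 fold change of the list was -0.28. At an unadjusted p under 0.05, 10 were lower; DESeq2 called 7 and limma-voom 4. adh1, the alcohol dehydrogenase gene that keeps glycolysis running when oxygen is short, was at 1370, 2030 and 2180 CPM in wild type and at 923, 1040 and 640 CPM in L100 (-1.10, SE 0.21, adjusted p = 0.011). It was also lower at 10 DAP (-0.99, adjusted p = 0.027), and its 15 DAP call held without any single library. gpc3, a cytosolic glyceraldehyde phosphate dehydrogenase gene, was at 1240, 2080 and 2140 CPM against 803, 786 and 1000 CPM (-1.07, SE 0.20, adjusted p = 0.011), and its call ended without L100 replicate 2 (adjusted p = 0.054). The other 2, chosen after their values were seen, were gpc4 and the malate dehydrogenase gene mdh4 (-0.91 and -0.63), whose calls ended without 8 of the 12 libraries (highest adjusted p = 0.13) and without L100 replicate 2 (0.066). The number of lower genes in the list was 1 to 6 over the fits that left out 1 library and 1 with L100 replicates 1 and 2 summed.

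PPCK3 and PPCK1 were higher in L100. They encode kinases that activate phosphoenolpyruvate carboxylase. PPCK3 was at 11.3, 4.5 and 6.46 CPM in wild type and at 56.6, 51.7 and 21.2 CPM in L100 (a log2 fold change of 2.54, SE 0.44, adjusted p = 0.0092). PPCK1, chosen after its values were seen, was at 23.1, 17.9 and 16.5 CPM against 49.2, 44.3 and 49.8 CPM (1.32, SE 0.21, adjusted p = 0.005). In neither gene did the lines overlap, and both calls held without any single library. In nitrogen metabolism 1 of 17 genes was higher (5.88%, against 3.57% of all genes) and 0 lower. The asparagine synthetase gene asn3 was at 2.01, 0.308 and 2.07 CPM in wild type and at 14.3, 15.4 and 47.2 CPM in L100 (4.10, SE 1.01, adjusted p = 0.04), and its call ended without 8 of the 12 libraries (highest adjusted p = 0.13).

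Of 23 tested genes of lipoxygenases and jasmonate synthesis, 3 were higher (13.0%, against 3.57% of all genes) and 0 lower. Their median log2 fold change was 0.07. aos2 and opr7 belong to enzyme families of jasmonate synthesis, and lox3 encodes a lipoxygenase of the class that does not feed that route. lox3 was at 97.1, 58.7 and 84.1 CPM in wild type and at 198, 220 and 155 CPM in L100 (1.26, SE 0.22, adjusted p = 0.0072). aos2, an allene oxide synthase gene, was at 0.344, 0.432 and 0.253 CPM against 6.26, 6.19 and 12.7 CPM (4.59, SE 0.60, adjusted p = 0.0019). opr7, an oxophytodienoate reductase gene chosen after its values were seen, was at 23.9, 31.3 and 29 CPM against 49.5, 51.6 and 50.9 CPM (0.85, SE 0.11, adjusted p = 0.0016). All 3 calls held without any single library. lox3 and opr7 were also higher at 10 DAP (1.44 and 0.83, adjusted p = 0.005 and 0.002), whereas aos2 was not (0.19, adjusted p = 0.88).

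A few DNA replication genes were higher in L100. Of 27 genes of the cell cycle and DNA replication, 4 were higher (14.8%) and 1 lower (3.7%), against 3.57% and 3.09% of all genes. Their median log2 fold change was 0.14. MCM6 and MCM7 encode subunits of the helicase that opens replication origins. MCM6 was at 4.19, 7.03 and 9.7 CPM in wild type and at 19.8, 31.1 and 28.4 CPM in L100 (1.92, SE 0.27, adjusted p = 0.0029), and MCM7 at 2.52, 3.27 and 4.14 CPM against 8.64, 10.9 and 8.13 CPM (1.47, SE 0.21, adjusted p = 0.0029). For both genes each L100 library was above each wild-type library and the call held without any single library. At 10 DAP they were at 29.6 to 50 and 10.7 to 14.2 CPM over the libraries of both lines, without a difference that passed (adjusted p = 0.39 and 0.98). The other 2 higher genes, chosen after their values were seen, were pcna1, the sliding clamp of DNA polymerase (1.12), and the retinoblastoma-related gene rbr3 (1.14). Their calls ended without wild-type or L100 replicate 2 (adjusted p = 0.051 for each) and without 9 of the 12 libraries (highest adjusted p = 0.15). The kinesin gene krp6 was lower, at 47.2, 30.2 and 36.9 CPM against 18.3, 16.2 and 9.81 CPM (-1.36, SE 0.27, adjusted p = 0.014). Of 20 histone and nucleosome genes 2 were lower (10.0%, against 3.09% of all genes), hon110 (-1.14) and hon101 (-0.52), and 0 higher. These calls ended without 7 and 9 of the 12 libraries (highest adjusted p = 0.11 for each). Both genes were also lower at 10 DAP (-1.27 and -0.53, adjusted p = 0.031 and 0.046).

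Of the hormone genes, CKX5 had the smallest adjusted p. It encodes a cytokinin oxidase, which breaks cytokinins down, and was at 58.9, 57.2 and 46.8 CPM in wild type and at 14.6, 11.5 and 20.2 CPM in L100 (a log2 fold change of -1.82, SE 0.18, adjusted p = 0.00029). At 10 DAP the lines were close, at 57.6 to 60.6 and 51.8 to 56.4 CPM (-0.11, adjusted p = 0.77). The cytokinin response regulator gene crr2 (0.95) and AUX18 (1.24) were higher, and these calls ended without 6 and 5 of the 12 libraries (highest adjusted p = 0.096 and 0.11). In all, 2 of 41 auxin and cytokinin genes were higher (4.88%) and 1 lower (2.44%), close to the shares of all genes; DESeq2 called 4 and 3. The ethylene receptor gene etr2 was lower, at 97, 75.8 and 82.4 CPM against 49.9, 54.1 and 54.1 CPM (-0.69, SE 0.12, adjusted p = 0.0087). It was the only call among 10 ethylene and gibberellin genes (10.0% lower, against 3.09% of all genes).

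Of 51 tested genes of water and ion transport, 5 were higher (9.8%) and 4 lower (7.84%), against 3.57% and 3.09% of all genes. The other 42 did not pass. Over the fits that left out 1 library, 2 to 6 were higher and 1 to 4 lower. The higher ones were 4 TIP aquaporin genes and 1 NIP aquaporin gene. The tonoplast gene tip4a was at 2.24, 0.617 and 1.46 CPM in wild type and at 7.57, 9.8 and 5.14 CPM in L100 (a log2 fold change of 2.37, SE 0.42, adjusted p = 0.0082). The seed tonoplast gene tip3b was at 2.24, 4.75 and 3.03 CPM against 25.5, 22.7 and 59.3 CPM (3.42, SE 0.81, adjusted p = 0.034), and its call ended without 7 of the 12 libraries (highest adjusted p = 0.12). nip3a, tip4b and tip4d, chosen after their values were seen, had log2 fold changes of 0.87, 0.68 and 1.46; the call of nip3a held, and those of tip4b and tip4d ended without 4 and 5 of the 12 libraries (highest adjusted p = 0.085 and 0.1). The lower ones were 3 PIP aquaporin genes and a potassium transporter gene. HAK25, the potassium transporter, was at 71, 61.9 and 44.5 CPM against 31, 30 and 21 CPM (-1.11, SE 0.20, adjusted p = 0.0098). PIP1-1 was at 241, 231 and 177 CPM against 137, 98.7 and 152 CPM (-0.74, SE 0.19, adjusted p = 0.038), and its call ended without 7 of the 12 libraries (highest adjusted p = 0.12). pip2b (-0.70) and PIP1-3 (-0.67), chosen after their values were seen, lost their calls without 5 and 3 of the 12 libraries (highest adjusted p = 0.11 and 0.075).

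Of 24 tested cell wall genes 3 were lower (12.5%) and 1 higher (4.17%), against 3.09% and 3.57% of all genes. This balance turned with the processing, with 5 higher and 3 lower by DESeq2, 3 and 3 under the filter of 5 CPM, and 3 and 2 without L100 10 DAP replicate 3. The beta-expansin gene expB2, whose product loosens walls, was at 502, 476 and 500 CPM in wild type and at 300, 226 and 304 CPM in L100 (a log2 fold change of -0.83, SE 0.15, adjusted p = 0.01). CslF6-1, a gene of mixed-linkage glucan synthesis, was at 213, 186 and 188 CPM against 91.6, 129 and 53.2 CPM (-1.10, SE 0.29, adjusted p = 0.047). At 10 DAP CslF6-1 was higher in L100 (1.33, adjusted p = 0.037), and its 15 DAP call ended without 11 of the 12 libraries (highest adjusted p = 0.12). The cellulose synthase gene cesa5 was lower (-0.63) and xth1, a xyloglucan-modifying enzyme gene, higher (1.60), both chosen after their values were seen; the call of cesa5 held, and that of xth1 ended without 9 of the 12 libraries (highest adjusted p = 0.15). In lipid synthesis the plastid desaturase gene fad6 was lower, at 84.1, 95.1 and 109 CPM against 39.5, 38.8 and 48.6 CPM (-1.18, SE 0.16, adjusted p = 0.0021), as it was at 10 DAP (-1.57, adjusted p = 0.00035). It was the only call among 14 genes of its list (7.14% lower, against 3.09% of all genes).

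Among 32 antioxidant and glutathione genes 1 was higher and 1 lower, near the shares of all genes, and DESeq2 called 3 and 3. The catalase gene cat2 was at 6.37, 11.3 and 5.86 CPM in wild type and at 23.7, 30.4 and 22.3 CPM in L100 (a log2 fold change of 1.70, SE 0.38, adjusted p = 0.023), and its call ended without 4 of the 12 libraries (highest adjusted p = 0.083). gst5, a glutathione transferase gene, was at 136, 170 and 123 CPM against 78.6, 50.1 and 39.8 CPM (-1.35, SE 0.28, adjusted p = 0.018). Its call ended without wild-type replicate 2 (adjusted p = 0.066) or L100 replicates 2 (0.073) or 3 (0.051). go1, a glycolate oxidase gene, was higher, at 0.86, 0.863 and 1.36 CPM against 4.57, 5.14 and 9.89 CPM (2.65, SE 0.49, adjusted p = 0.011), and that call ended without wild-type replicate 2 (adjusted p = 0.052).

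Several processes gave no call. By edgeR 0 of 30 ribosomal protein genes passed (1 before adjustment, at p under 0.05, and 0 with DESeq2 or limma-voom), and their median log2 fold change was 0.01. Of 12 flavonoid genes 0 passed, against 2 higher before adjustment, 2 with DESeq2 and 1 with limma-voom. Of 16 carotenoid and tocopherol genes 0 passed, against 3 before adjustment, 2 with DESeq2 and 0 with limma-voom. Of 16 pathogenesis-related and protease inhibitor genes 0 passed, against 2 before adjustment, 1 with DESeq2 and 0 with limma-voom.

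Transcription factors were called at shares close to those of all genes. In a list of 346 tested factors assembled after the data were seen, 15 were higher (4.34%) and 12 lower (3.47%), and the median log2 fold change was 0.03. DESeq2 called 24 higher and 21 lower, and library totals 17 and 6. The counts were 4 and 4 without wild-type replicate 2, 4 and 7 without wild-type replicate 3, 7 and 6 without L100 replicate 1, 6 and 1 without L100 replicate 2, and 12 and 8 without L100 replicate 3. The examples that follow were chosen after their values were seen. GRF6, a growth-regulating factor gene, was at 15, 18.4 and 16 CPM in wild type and at 31.4, 32.5 and 29.4 CPM in L100 (0.92, SE 0.15, adjusted p = 0.0059). The MADS-box gene ZAG5 was at 0.975, 0.678 and 1.21 CPM against 4.32, 3.96 and 4.6 CPM (2.15, SE 0.35, adjusted p = 0.0054). ERF1, an ethylene response factor gene, was lower, at 122, 129 and 121 CPM against 48.3, 50.7 and 63.8 CPM (-1.19, SE 0.18, adjusted p = 0.0036). All 3 calls held without any single library.

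Calcium and kinase signalling was also listed after the data were seen. Of its 82 genes 6 were higher (7.32%) and 5 lower (6.1%), against 3.57% and 3.09% of all genes. Over the fits that left out 1 library 3 to 6 were higher and 1 to 6 lower, and library totals gave 8 and 2. Both examples were chosen after their values were seen. A model named calmodulin (GRMZM2G149923), after the calcium sensor, was at 40.5, 35.3 and 36.5 CPM in wild type and at 98.7, 100 and 149 CPM in L100 (a log2 fold change of 1.63, SE 0.17, adjusted p = 0.00049). The mitogen-activated protein kinase gene mpk6 was lower, at 44.1, 50.8 and 36.9 CPM against 24.9, 20.8 and 20.3 CPM (-0.99, SE 0.18, adjusted p = 0.0089). Both calls held without any single library. Of 59 chromatin factor genes 2 were higher (3.39%) and 1 lower (1.69%), counts too small to set against the shares of all genes.

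Some genes were present in one line only at 15 DAP. Of the genes called higher, 34 had 0 counts in every wild-type library, and of those called lower 18 had 0 counts in every L100 library. Of these, 20 and 4 also had 0 counts in that line at 10 DAP. The largest changes of all belonged to such models. Maize_newGene_1872 (chromosome 2, 15941787 to 15943695) had 0 counts in wild type but reached 19.9, 12.4 and 29.8 CPM in L100. It was thus at least 122-fold higher there (adjusted p = 0.00016). Maize_newGene_47 and Maize_newGene_7340 likewise had 0 counts in wild type and were at least 87.1-fold and 79.7-fold higher in L100. At 10 DAP all 3 models were at or near 0 in both lines, with at most 0.162 CPM in any library. The bounds take the mean CPM that 3 counts per library would give and cover counting error only.

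In the other direction GRMZM2G169013 (chromosome 2, 7863064 to 7866228) was at 111, 97.7 and 51.6 CPM in wild type and had 0, 0 and 3 counts in L100 (low counts appear to have been rounded up before deposit). The summed counts gave a ratio of 1230 (95% counting interval 420 to 5960), and its call (adjusted p = 0.012) ended without L100 replicate 1, 2 or 3 (adjusted p = 0.053, 0.059 and 0.051). Maize_newGene_4985 and Maize_newGene_1278 had 0 counts in L100 and were at least 138-fold and 39.5-fold lower. The first of these calls (adjusted p = 0.022) ended without 4 of the 12 libraries, with a highest adjusted p of 0.065. cpx2, which the reference table lists as a transcribed pseudogene, was at 11.9, 11 and 9.39 CPM in wild type and at 0, 0 and 0.92 CPM in L100 (a log2 fold change of -5.20, SE 1.09, adjusted p = 0.021). Its call ended without wild-type replicate 2 (adjusted p = 0.059) or L100 replicates 1 (0.067) or 2 (0.073). ERTC was at 30.4, 17.6 and 9.95 CPM against 2.38, 1.18 and 2.45 CPM (-3.26, SE 0.55, adjusted p = 0.0068), and this call held without any single library.

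The called genes were not spread evenly over the genome. On chromosome 1, 10.8% of 3880 tested genes were called and on chromosome 10, 9.3% of 1645. On the other chromosomes the shares were 4.87% to 6.51%, and 5.61% over all gene models outside chromosomes 1 and 10. The stretch from 200 to 290 Mb of chromosome 1 had 212 calls in 1402 genes (15.1%), 109 higher and 103 lower, and 11.8% at the earlier stage. The stretch from 70 to 100 Mb of chromosome 10 had 58 calls in 282 genes (20.6%), against 3.55% at the earlier stage. These stretches were chosen after the data were seen, and neighbouring genes are not independent. Called genes described above that lie in the chromosome 1 stretch include fad6, tip3b, lox3, adh1, Hsf26, gst5, glb2, ohp1 and hon110. Those in the chromosome 10 stretch include bap-3b, CslF6-1 and Maize_newGene_1278. Whether the differences of these genes go with their place on the chromosome was not tested.

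The differences at 15 DAP were set beside those at 10 DAP, which come from other libraries. At 10 DAP 749 genes (3.0%) were called, 439 higher (1.76%) and 310 lower (1.24%). Of the 891 genes higher at 15 DAP, 158 (17.7%) were also called higher at 10 DAP, and of the 771 lower ones 77 (9.99%) were also called lower. A further 10 genes were called at both stages in opposite directions. The test of the difference between the stages, the genotype by stage interaction, called 136 genes (0.545%), 68 in each direction (0.273%). Of these, 100 were also called at 15 DAP, 50 higher and 50 lower, and in 91 of the 100 the difference between the lines was the larger one at 15 DAP. The count of 136 was 54, 13, 22 and 17 without wild-type replicates 1 and 2 and L100 replicates 1 and 2 at 15 DAP. It was 29, 11 and 19 without wild-type replicates 1, 2 and 3 at 10 DAP and 86, 22 and 221 without L100 replicates 1, 2 and 3 at 10 DAP, and 17 with L100 15 DAP replicates 1 and 2 summed. For most of the 1662 genes a difference particular to 15 DAP was thus not shown.

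Of the genes with an interaction, GRMZM2G133055 (chromosome 4, 9807097 to 9808208) had the smallest p among those lower at 15 DAP. It was at 39.9, 37.1 and 24.4 CPM in wild type and at 1.81, 1.6 and 1.07 CPM in L100 at 15 DAP (a log2 fold change of -4.48, SE 0.28, adjusted p = 1.4e-05), and at 15.6 to 20.2 and 12.4 to 19.1 CPM at 10 DAP. Its interaction was -4.35 (SE 0.35, adjusted p = 0.00044). GRMZM2G133781 on the same chromosome was at 289, 297 and 228 CPM against 35.7, 30 and 62 CPM at 15 DAP, and at 54.1 to 70.5 and 69.3 to 72.9 CPM at 10 DAP (interaction -2.87, SE 0.32, adjusted p = 0.012). In the other direction AC199541.4_FG007 was at 5.22, 5.55 and 4.9 CPM in wild type and at 20.4, 21.3 and 22.3 CPM in L100 at 15 DAP, while at 10 DAP it was at 4.3 to 6.12 and 4.11 to 6.06 CPM (interaction 2.13, SE 0.27, adjusted p = 0.013). These 3 interaction calls held without any single library. The files and the reference table give these models no name.

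**Figure D5:**
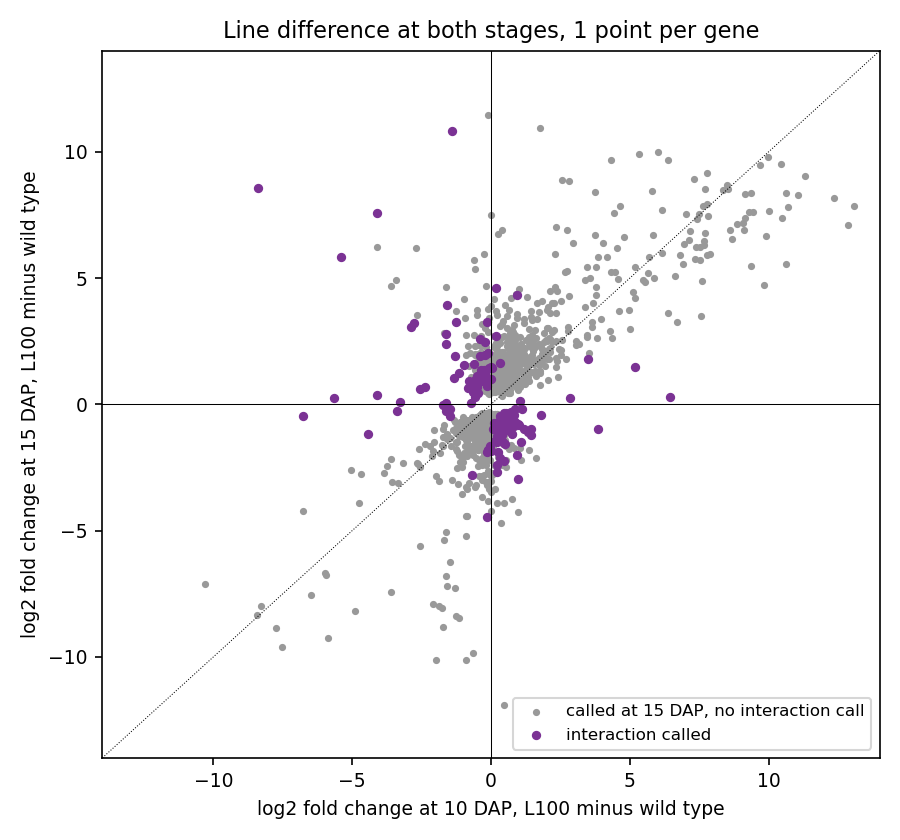
Log2 fold change between L100 and wild type at 15 DAP against that at 10 DAP, with 1 point per gene; grey points are genes called at 15 DAP, purple points the 136 genes with an interaction call, and the dotted line marks equal differences. Many grey points lie close to a 10 DAP difference of 0, and those with large differences at both stages follow the dotted line.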

How the data were processed

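Total RNA of whole seeds was extracted with CTAB and sequenced on Illumina libraries, per the labels' protocols. Bowtie 0.12.2 and the build B73 RefGen_v3 are named in the submitters' processing notes; for the quantifier, the annotation release and the strand setting, nothing is given in the sources used. The authors deposited 1 table per library with 41430 models, 2578 of them called Maize_newGene. The deposited count column holds whole numbers, was taken to be estimated counts and was used as it stood; models with an FPKM near 0 can hold a count of 1, so low values appear to have been rounded up, which inflates genes of a few counts; the deposited FPKM and normalized columns were not used here.

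Counts were fitted in R 4.3.3 with edgeR 4.0.16 (TMM scaling, filterByExpr, robust quasi-likelihood fit with 1 mean for each of the 4 groups over all 12 libraries, Benjamini-Hochberg adjustment, threshold 0.05). The comparisons were L100 minus wild type at 15 DAP, at 10 DAP, and the difference of the 2. SE is the log2 fold change divided by the root of F. The fit was tested on simulated data with 100 genes changed 2-fold and 100 changed 4-fold at 15 DAP. In the 15 DAP comparison it recovered 39% and 77% of them, with 6 false calls among 122. For the interaction it recovered 7% and 57%, with 4 false calls among 68. Alternatives were DESeq2 1.42.0, limma-voom (limma 3.58.1), RLE scaling, library totals, no filter, a filter of 5 CPM in 3 libraries, a block for the replicate number, the 15 DAP libraries alone and each library left out; the sum of L100 replicates 1 and 2, and the 59 list matches below kept in, were chosen after seeing the data.

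Names came from assembly Zm-B73-REFERENCE-NAM-5.0, which matched 18021 models and named 2530. The comparison, the 26 gene lists and the naming rule were chosen with earlier results of these data known. For clashing names 59 list matches were left out. The rule named, among called genes whose lines did not overlap and whose higher line averaged 5 CPM or more, the 10 largest changes in each direction with a name, the 3 largest with or without one, and the 2 largest per list and direction. It added 20 genes by name, of which su1, su2 and dzs10 had no match, and the 5 smallest interaction p per direction among genes of at least 5 CPM in 1 group. Genes outside it are marked in the text. Intervals and floors cover counting error only.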

Additional observations from a re-analysis of the deposited data

Results flagged for a closer look

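For 16 named genes the difference between the lines at 15 DAP was not that at 10 DAP, by the test of the interaction (15 DAP minus 10 DAP difference, log2 scale, 3 libraries per group, edgeR with Benjamini-Hochberg adjustment). All were named in part because of this test or of the 15 DAP difference. In aos2 the interaction was 4.40 (adjusted p = 0.042), in MCM6 2.33 (0.029) and in MCM7 1.49 (0.049). In CKX5 it was -1.71 (0.023) and in CslF6-1 -2.43 (0.041). These 5 calls ended without 10, 6, 11, 6 and 9 of the 12 libraries taken one at a time (highest adjusted p = 0.11, 0.082, 0.12, 0.059 and 0.11).

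In Maize_newGene_7340, which had 0 counts in wild type at 15 DAP, the fitted interaction was 12.22 (adjusted p = 0.044). That value depends on the prior count and is no measure of size. Its call ended without 10 of the 12 libraries.

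Higher at 15 DAP relative to 10 DAP were Maize_newGene_6786 (5.93, adjusted p = 2.8e-06), GRMZM2G056986 (3.05, 0.012), Maize_newGene_7558 (3.12, 0.012), AC199541.4_FG007 (2.13, 0.013) and GRMZM2G045239 (3.16, 0.022). In 4 of these 5, all except AC199541.4_FG007, the line difference itself passed at 10 DAP and not at 15 DAP. Maize_newGene_6786 was at 13.8, 17.8 and 16.7 CPM in wild type and at 0.231, 0.322 and 0.366 CPM in L100 at 10 DAP, and at 25.1 and 30.1 CPM on average at 15 DAP. Lower relative to 10 DAP were GRMZM2G133055 (-4.35, adjusted p = 0.00044), GRMZM2G133781 (-2.87, 0.012), GRMZM2G178875 (-3.69, 0.013), GRMZM2G011347 (-2.62, 0.013) and GRMZM2G166944 (-1.94, 0.021). Of these, GRMZM2G178875 was higher in L100 at both stages, by less at 15 DAP (1.48, adjusted p = 0.027) than at 10 DAP (5.18, adjusted p = 2.7e-06). Its 15 DAP call ended without 3 of the 12 libraries (highest adjusted p = 0.1). GRMZM2G011347 was lower in L100 at 15 DAP (-1.20, adjusted p = 0.0098) and higher at 10 DAP (1.42, adjusted p = 0.011). Interaction calls of GRMZM2G045239, GRMZM2G011347 and GRMZM2G166944 ended without 3, 1 and 1 of the 12 libraries (highest adjusted p = 0.057, 0.051 and 0.051). The other 7 of these 10 interaction calls held.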

How the results depend on the processing

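The 1662 genes called at 15 DAP were 2889 with DESeq2, 1073 with a replicate block and 697 with L100 replicates 1 and 2 summed, and 615 to 1869 with 1 library left out. The 945 genes of at least 2-fold were 1477, 672 and 513 in the same order, and 435 to 1104 with 1 library left out. The 136 interaction calls were 1081 with DESeq2, 63 with limma-voom, 74 with library totals, 25 with the replicate block and 17 with the summed library, and 11 to 221 with 1 library left out. The cause of these shifts was not tested. RLE scaling gave 1657, 946 and 127. The replicate numbers do not pair the samples: deviations of same-numbered libraries correlated at 0.053, 0.011 and -0.065.

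Of 1594 pairs of a named gene and an alternative, 1330 kept direction and side of the threshold, 248 lost the call, 1 gained it and 15 turned sign. All 15 were of mn1, which was never called: its log2 fold change of -0.01 became 0.03 with limma-voom, 0.08 with library totals, 0.01 with no filter, 0.03 with the 5 CPM filter, 0.04 with the replicate block and 0.0 with the 15 DAP libraries alone, and ran from -0.22 to 0.13 with 1 library left out. Of 59 named genes with a call, 31 held it without each library in turn. With 3 libraries per group and 14014035 to 22370566 counts per library, small differences of genes of a few counts could not be resolved, and differences not called are not shown to be absent.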
